A study of Mus musculus with 6 samples.

Results

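The Hox genes are the clustered homeobox genes that pattern the body axis. The 38 listed members, of 22202 protein-coding genes in the annotation, were chosen by name: 10 in the Hoxa cluster, 10 in Hoxb, 9 in Hoxc and 9 in Hoxd. Each was read through the ATAC-seq peaks that lay within 1000 bp of an annotated coding start, and each cluster was read through every peak in it and in the 20 kb on either side. ATAC-seq uses the Tn5 transposase to cut accessible DNA, and a peak is a stretch where the cuts pile up.

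The 6 libraries came from 1 mouse embryonic stem cell (ESC) line, J1 of strain 129SV, with 2 technical replicates for each of 3 states. ESCs were grown in a serum-based medium with LIF, CHIR99021 and PD0325901, on fibroblast feeders or gelatin. D-EPSCs, extended pluripotent stem cells made from ESCs, were grown in N2B27 with KSR, LIF, CHIR99021, dimethindene maleate and minocycline hydrochloride. L-EPSCs, expanded potential stem cells made from ESCs, were grown in DMEM/F12 and KSR with LIF, CHIR99021, PD0325901, A-419259, XAV939, JNK inhibitor VIII and SB203580. All states shared LIF and CHIR99021, and both EPSC states were kept without feeders before use. The replicates were technical and each state was deposited as a single peak list, so differences between lists below describe these lists and carry no test across replicates. Sequencing depth behind the lists is unknown, and it cannot be told apart from the state.

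Hox proteins are homeodomain transcription factors that give cells their position along the head-to-tail axis. In each cluster the genes lie in the order in which they act, with low paralogue numbers expressed anteriorly and early and high numbers posteriorly and late. In pluripotent cells the clusters are a textbook case of Polycomb-repressed, CpG-rich chromatin, and retinoic acid is a known inducer of the anterior genes.

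The lists held 28965 peaks in the ESC list, 50225 in the D-EPSC list and 46601 in the L-EPSC list, and the median widths were 369, 364 and 358 bp. Of 5 pluripotency markers found in the annotation, Pou5f1, Sox2 and Zfp42 had a start peak in all 3 lists, while Nanog and Esrrb had one in both EPSC lists and none in the ESC list. Of 12 fibroblast markers, 3 had a start peak in the ESC list, 7 in the D-EPSC list and 3 in the L-EPSC list, and Col3a1, Postn, Lum, Dcn and Fap had none in any list. The part of these markers in the Hox values was not tested.

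A short sequence is shown first because it recurs in 3 of the 4 clusters. A direct repeat of 2 half-sites with 5 bases between them (DR5) is an arrangement bound by retinoic acid receptors. The half-site was searched as AGGTCA and also, a choice made after seeing the data, with a purine first and G or T as the third base. In the 3 sites below, on mm9, capitals mark the repeat. The first lies in a Hoxa3 intron at chr6:52125532-52125548 on the minus strand, the second in a Hoxb3 intron at chr11:96202550-96202566 on the plus strand, and the last in a Hoxd3 intron at chr2:74579597-74579613 on the plus strand. The Hoxa3 and Hoxb3 sites also lie within an overlapping annotated transcript.
Hoxa3 intron site: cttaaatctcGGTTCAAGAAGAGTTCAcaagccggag
Hoxb3 intron site: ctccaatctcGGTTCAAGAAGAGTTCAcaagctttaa
Hoxd3 intron site: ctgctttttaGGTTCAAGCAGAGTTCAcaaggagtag

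The Hoxa3 and Hoxb3 repeats were identical at 17 of 17 bases and their windows at 31 of 37. The Hoxd3 repeat was identical to either at 16 of 17 bases, with windows identical at 27 of 37. The Hoxa3 site lay inside a 554 bp peak found in D-EPSCs alone, 2728 bp from an ESC peak. The Hoxb3 site lay in no peak, 63 bp from a D-EPSC peak, 601 bp from an L-EPSC peak and 29255 bp from an ESC peak. The Hoxd3 site lay in no peak either, 586 bp from an L-EPSC peak, 8379 bp from a D-EPSC peak and 21211 bp from an ESC peak. The 3 sites thus differed in whether a peak reached them. In 400 bp around peak midpoints, the variable DR5 was found on either strand in 1 of 68 D-EPSC cluster peaks (1.47%, against 0.259% of all D-EPSC peaks), and in 0 of 20 ESC and 0 of 49 L-EPSC cluster peaks, where 0.176% and 0.275% of all peaks held it. With so few matches the lists cannot be ordered by it. The repeat with 2 bases between (DR2), another arrangement of these receptors, was searched in the same way, and its variable form was found in 0 of 20, 0 of 68 and 0 of 49 cluster peaks, where 0.390%, 0.390% and 0.487% of all peaks held it. Its 2 matches within the gene spans, nearest to the Hoxa10 and Hoxb1 starts, lay in no peak. The AGGTCA spelling of either repeat was found in none of them. A further match of the variable DR5 within the gene spans, between Hoxb13 and Hoxb9, lay in no peak and was less alike, with 10 of 17 bases identical to the Hoxa3 repeat.

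Fewer Hox genes had a peak at a start in ESCs than in either EPSC list. In ESCs 9 of 38 did (23.7%, Wilson 95% interval 12.99 to 39.21), against a background of 51.7% of all coding genes. In D-EPSCs 24 of 38 did (63.2%, 47.3 to 76.6), beside a background of 63.6%. In L-EPSCs 19 of 38 did (50.0%, 34.9 to 65.2), beside 61.0%. The intervals cover counting error only, and neighbouring genes can share a peak. The Hox share was thus below the background in ESCs, while the D-EPSC share was near it. The readings for the EPSC lists depended on settings. Within 2500 bp of a start the counts were 9, 31 and 25 of 38 (23.7%, 81.6% and 65.8%), beside 54.6%, 66.4% and 64.0% of all genes. With each list held to its widest 28965 peaks, the length of the ESC list, the counts were 9, 16 and 13 of 38 (23.7%, 42.1% and 34.2%), beside 51.7%, 58.9% and 56.5% of all genes.

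By the lists with a peak, 9 Hox genes had one in all 3 lists (background 50.6%), 8 in both EPSC lists only (9.19%), 7 in D-EPSCs only (3.34%), 2 in L-EPSCs only (0.937%) and 12 in no list (34.9%). No Hox gene had a start peak in ESCs without one in both EPSC lists, a pattern found at 244 of all 22202 coding genes (1.10%). The 15 genes with a start peak in D-EPSCs and none in ESCs made up the classes of both EPSC lists only and D-EPSCs only, with backgrounds of 9.19% and 3.34%. The 10 with one in L-EPSCs and none in ESCs made up those of both EPSC lists only and L-EPSCs only, with backgrounds of 9.19% and 0.937%.

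**Figure D1:**
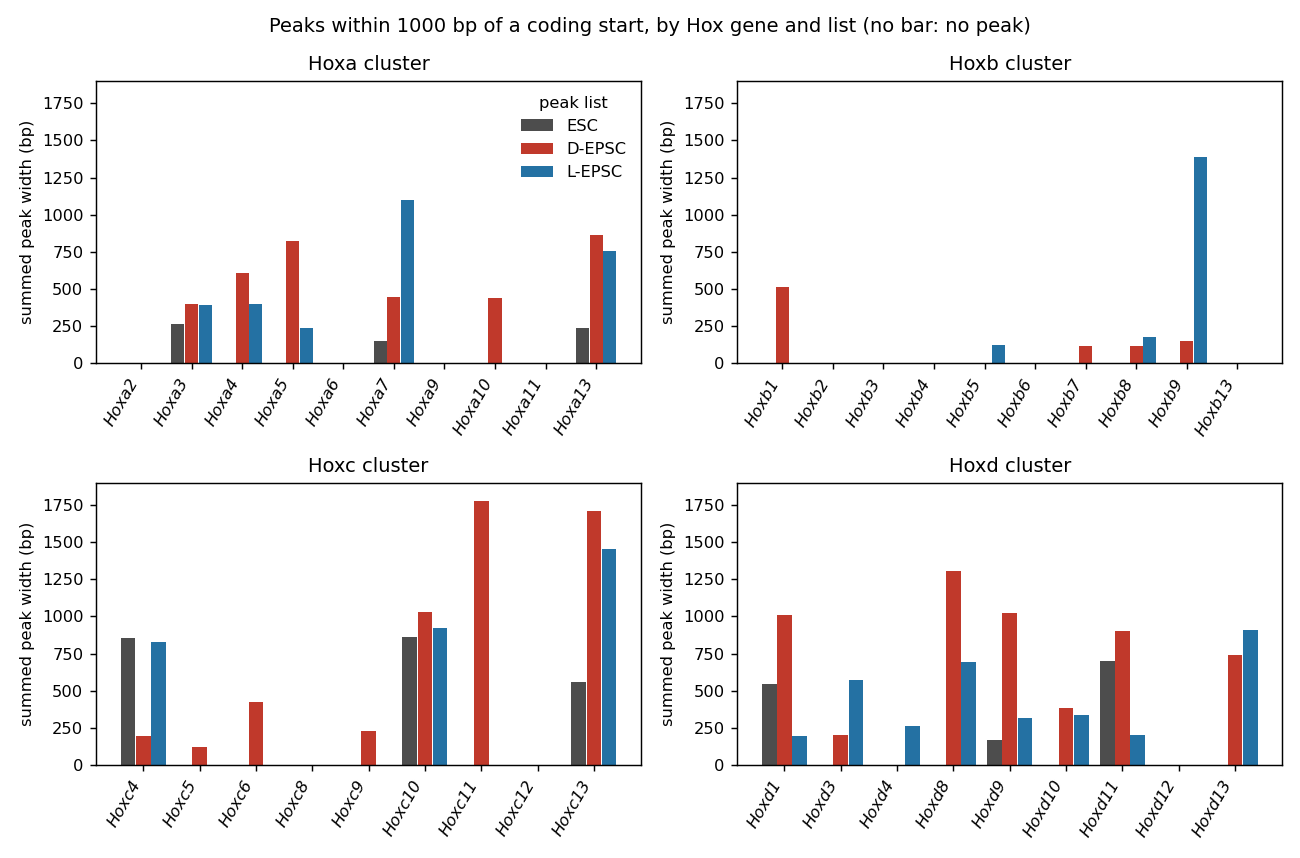
Summed width in bp (vertical axis) of the peaks within 1000 bp of a coding start of each Hox gene (horizontal axis), by cluster and peak list, from 1 list per state. ESC bars stand at 9 of the 38 genes and at none of the Hoxb genes, and the highest bar is Hoxc11 in D-EPSCs at 1780 bp.

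Among the anterior genes (paralogues 1 to 4), 3 of 11 had a start peak in the ESC list, 6 in the D-EPSC list and 6 in the L-EPSC list. Hoxa3, needed for the thymus and parathyroid, had a start peak in all 3 lists, with a summed width of 267 bp in the ESC list, 399 bp in the D-EPSC list and 394 bp in the L-EPSC list. Hoxd1 was widest in D-EPSCs, at 544 bp in the ESC list, 1009 bp in the D-EPSC list and 197 bp in the L-EPSC list. Hoxc4 went the opposite way, with 852 bp in the ESC list, 193 bp in the D-EPSC list and 828 bp in the L-EPSC list, and it was the single gene with peaks in both lists that was narrower in D-EPSCs than in ESCs.

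Hoxb1, which specifies the fourth rhombomere of the hindbrain, had a 517 bp peak over its start in D-EPSCs and none in the other lists. The nearest L-EPSC peak was 12150 bp away and the nearest ESC peak 53771 bp away. Hoxa4 had 606 bp in the D-EPSC list and 402 bp in the L-EPSC list, and Hoxd3 had 204 bp and 572 bp. The Hoxd3 width in L-EPSCs joined peaks of 310 and 262 bp at different starts. Hoxd4 had a start peak in L-EPSCs alone, a 262 bp peak that it shared with Hoxd3, and the nearest D-EPSC peak lay 1508 bp off. Hoxa2, Hoxb2, Hoxb3 and Hoxb4 had none in any list. Hoxb2 lay just outside the window, with a D-EPSC peak at 1051 bp and an L-EPSC peak at 1099 bp.

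Central genes (paralogues 5 to 8), which pattern the neck and trunk, had start peaks at 1 of 11 in the ESC list, 7 in the D-EPSC list and 5 in the L-EPSC list. The ESC peak was at Hoxa7, at 147 bp, against 449 bp in D-EPSCs and 1097 bp over 2 peaks in L-EPSCs. Hoxa5, required for lung development, had 821 bp in the D-EPSC list and 240 bp in the L-EPSC list. Hoxd8 had 1306 bp and 692 bp. Both Hoxa5 and Hoxd8 were covered at a start in each EPSC list, and their nearest ESC peaks were 17195 bp and 6500 bp away.

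The remaining central calls rested on narrower peaks or on the distance limit. Hoxb8 had a 117 bp peak in D-EPSCs and a 176 bp peak in L-EPSCs. Hoxb7 shared that D-EPSC peak at 877 bp, while the nearest L-EPSC peak lay at 1011 bp. Hoxc6 had a 423 bp D-EPSC peak at 912 bp, and the overlapping L-EPSC peak began at 1051 bp. Hoxc5 had 119 bp in D-EPSCs alone and Hoxb5 had 124 bp in L-EPSCs alone, close to the narrowest peaks of those lists (117 and 118 bp). Hoxa6, Hoxb6 and Hoxc8 had no start peak in any list.

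Posterior genes (paralogues 9 to 13), which pattern the lumbar to tail levels and the limbs, had start peaks at 5 of 16 in the ESC list, 11 in the D-EPSC list and 8 in the L-EPSC list. Hoxc13, a gene of hair and nail formation, had 557 bp in the ESC list, 1713 bp in the D-EPSC list and 1452 bp in the L-EPSC list. Hoxc10 differed less, at 865, 1029 and 922 bp. Hoxa13, a regulator of digit and urogenital development, had 235, 865 and 753 bp, and a peak over a start in the EPSC lists only. Hoxd9 had 168, 1024 and 314 bp. Hoxd11, which acts in the forearm, had 699 bp over 2 peaks of 162 and 537 bp in the ESC list, and single peaks of 900 bp in the D-EPSC list and 205 bp in the L-EPSC list.

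Hoxc11 carried the widest peak of any Hox start, a D-EPSC peak of 1780 bp that began 241 bp downstream of the start. Of all D-EPSC peaks 0.424% were as wide, and the nearest L-EPSC and ESC peaks were 10844 and 12039 bp away. Hoxb9 was the converse of this among the EPSC lists, with 1391 bp in L-EPSCs and 152 bp in D-EPSCs. Hoxd13, the digit gene at the posterior end of Hoxd, had 740 bp in the D-EPSC list and 910 bp in the L-EPSC list, and Hoxd10 had 387 and 340 bp. Hoxa10, a gene of the lumbar spine and uterus, had 442 bp and Hoxc9 232 bp, both in D-EPSCs alone. The Hoxa10 width joined peaks of 266 and 176 bp at different starts. Hoxa9, Hoxa11, Hoxb13, Hoxc12 and Hoxd12 had none in any list.

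The 150 bp at the centre of the widest region of 2 classes are shown on the plus strand of mm9, with CpG in capitals, for their base composition. The first is exonic in Hoxb9 (chr11:96133091-96133240, a merged region with peaks in both EPSC lists only) and the other intronic in Hoxc11 (chr15:102785914-102786063, D-EPSCs only).
Hoxb9: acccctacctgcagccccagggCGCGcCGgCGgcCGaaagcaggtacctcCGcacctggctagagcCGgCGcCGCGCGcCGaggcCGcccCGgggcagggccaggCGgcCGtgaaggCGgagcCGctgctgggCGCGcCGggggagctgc
Hoxc11: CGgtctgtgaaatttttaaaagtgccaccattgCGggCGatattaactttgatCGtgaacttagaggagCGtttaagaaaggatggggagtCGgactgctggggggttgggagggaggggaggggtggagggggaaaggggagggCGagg

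The L-EPSC peak covered the whole Hoxb9 stretch, whereas the D-EPSC peak, chr11:96133183-96133334, covered only its downstream part. These stretches held 21 and 7 CpG, with a GC content of 80.7% and 55.3%. CpG observed/expected, the CpG dinucleotides counted over those that the base composition would give, was 0.861 in the Hoxb9 stretch and 0.980 in the Hoxc11 stretch, so the order of the counts was not that of the ratio.

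By cluster, start peaks stood, in the order ESC, D-EPSC and L-EPSC, at 3, 6 and 5 of the 10 Hoxa genes, at 0, 4 and 3 of the 10 Hoxb genes, at 3, 7 and 3 of the 9 Hoxc genes, and at 3, 7 and 8 of the 9 Hoxd genes. Hoxb was the cluster without an ESC start peak. In Hoxc the L-EPSC count equalled the ESC count, and in Hoxd it exceeded the D-EPSC count.

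In both EPSC lists the median Hox start peak was narrower than the median start peak of all genes. Of Hox genes with a start peak, a smaller share than of all such genes had a start inside a peak. The ESC differences had the same direction and were smaller. The median width of Hox start peaks was 402 bp in the ESC list, 411 bp in the D-EPSC list and 318 bp in the L-EPSC list, against 510, 685 and 638 bp over all peaks at coding starts. In the ESC list 5 of the 10 Hox start peaks were wider than the median over all genes, and the median summed width per gene was 544 bp for Hox genes and 557 bp for all genes. The start itself lay inside a peak at 7 of 9 genes in ESCs (77.8%, background 82.0%), 12 of 24 in D-EPSCs (50.0%, background 90.6%) and 12 of 19 in L-EPSCs (63.2%, background 88.9%). Peak midpoints were downstream of the start for 76.9% of Hox start peaks in D-EPSCs and 73.9% in L-EPSCs, against 57.8% and 56.4% of all start peaks. A Hox peak shared by neighbouring genes was scored from the gene of lower number, whereas the background used the nearest start. The D-EPSC peak shared by Hoxb7 and Hoxb8 thus counts as upstream (-935 bp from Hoxb7), though it lay 597 bp downstream of the nearer Hoxb8 start. In ESCs 5 of 10 were downstream (50.0%, against 50.2% of all start peaks).

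**Figure D2:**
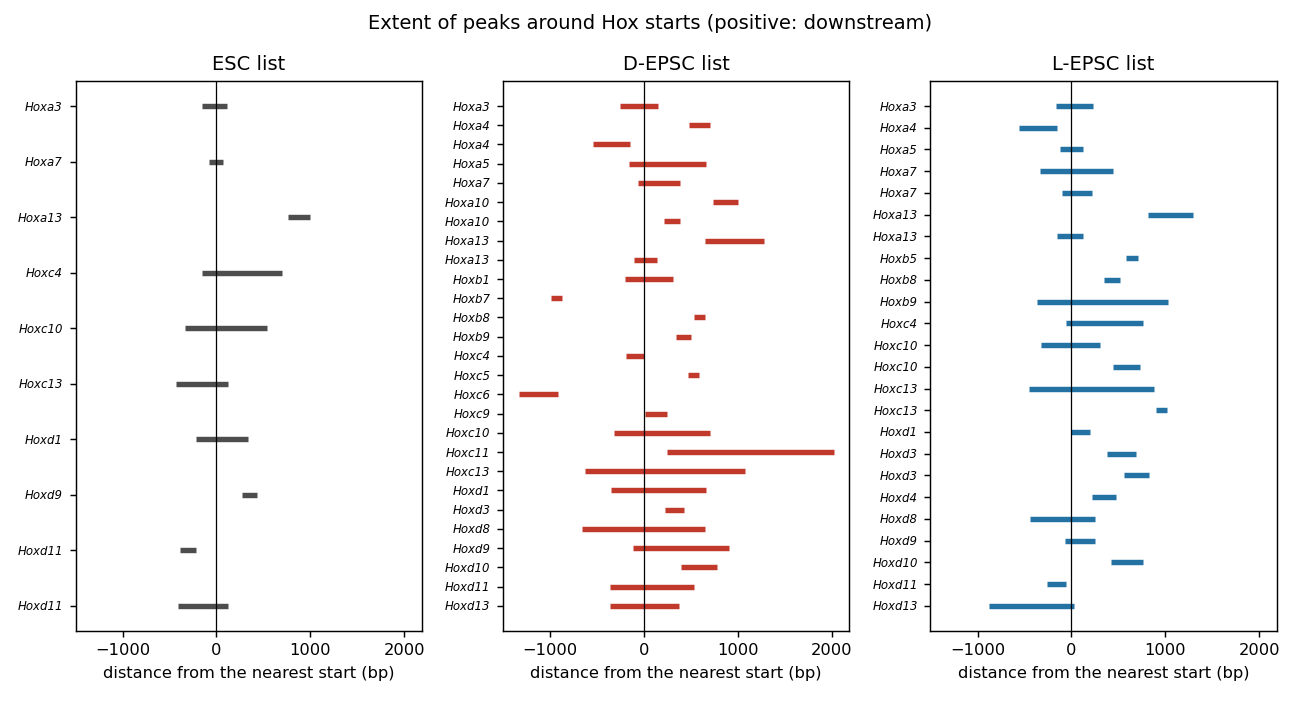
Extent of each peak within 1000 bp of a Hox start, as distance in bp from the nearest start (positive is downstream), by peak list and gene. In D-EPSCs the peaks covered a start at 12 of 24 genes and many bars lie to the right of the line at 0.

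By the summed width over all their starts, 8 of the 9 genes with peaks in all lists were wider in D-EPSCs than in ESCs and 6 were wider in L-EPSCs than in ESCs. Over all coding genes with both peaks these shares were 83.2% and 78.1%. Of the 17 genes with a peak in both EPSC lists, 11 were wider in D-EPSCs, where 59.8% of all such genes were.

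Across the clusters, more sequence was covered by peaks in either EPSC list than in ESCs. The 4 clusters with flanks spanned 645.0 kb and held 20 peaks in the ESC list, 68 in the D-EPSC list and 49 in the L-EPSC list. They covered 1.24% of these bases in the ESC list, 4.83% in D-EPSCs and 3.26% in L-EPSCs, against 0.477%, 0.886% and 0.798% of chromosomes 1 to 19 and X. The clusters were thus 2.59, 5.45 and 4.08 times as densely covered as the genome. The bases covered in the D-EPSC list were 3.91 times, and those in the L-EPSC list 2.64 times, the bases covered in the ESC list, where the genome gave 1.86 and 1.67. At equal list length the cluster ratios were 3.05 and 2.24, and those of the genome 1.53 and 1.41.

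Each cluster had the order D-EPSC, L-EPSC, ESC. With the flanks included, Hoxb was the least covered in ESCs, at 0.623% of its bases. It then had the largest ratios, 5.85 for D-EPSCs over ESCs and 4.52 for L-EPSCs over ESCs. Hoxc was the most covered in ESCs, at 2.21%, and had the smallest ratios, 2.34 and 1.52. Hoxd reached the highest share of any cluster, 6.05% in D-EPSCs, with ratios of 5.30 and 3.10. In Hoxa the ratios were 4.28 and 3.01, and they depended on the flanks. Within the gene spans alone, ESC, D-EPSC and L-EPSC peaks covered 649, 4992 and 3920 bp in Hoxa. In Hoxb they covered 1005, 7100 and 5378 bp. Without flanks Hoxa, not Hoxb, thus had the largest ratios.

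**Figure D3:**
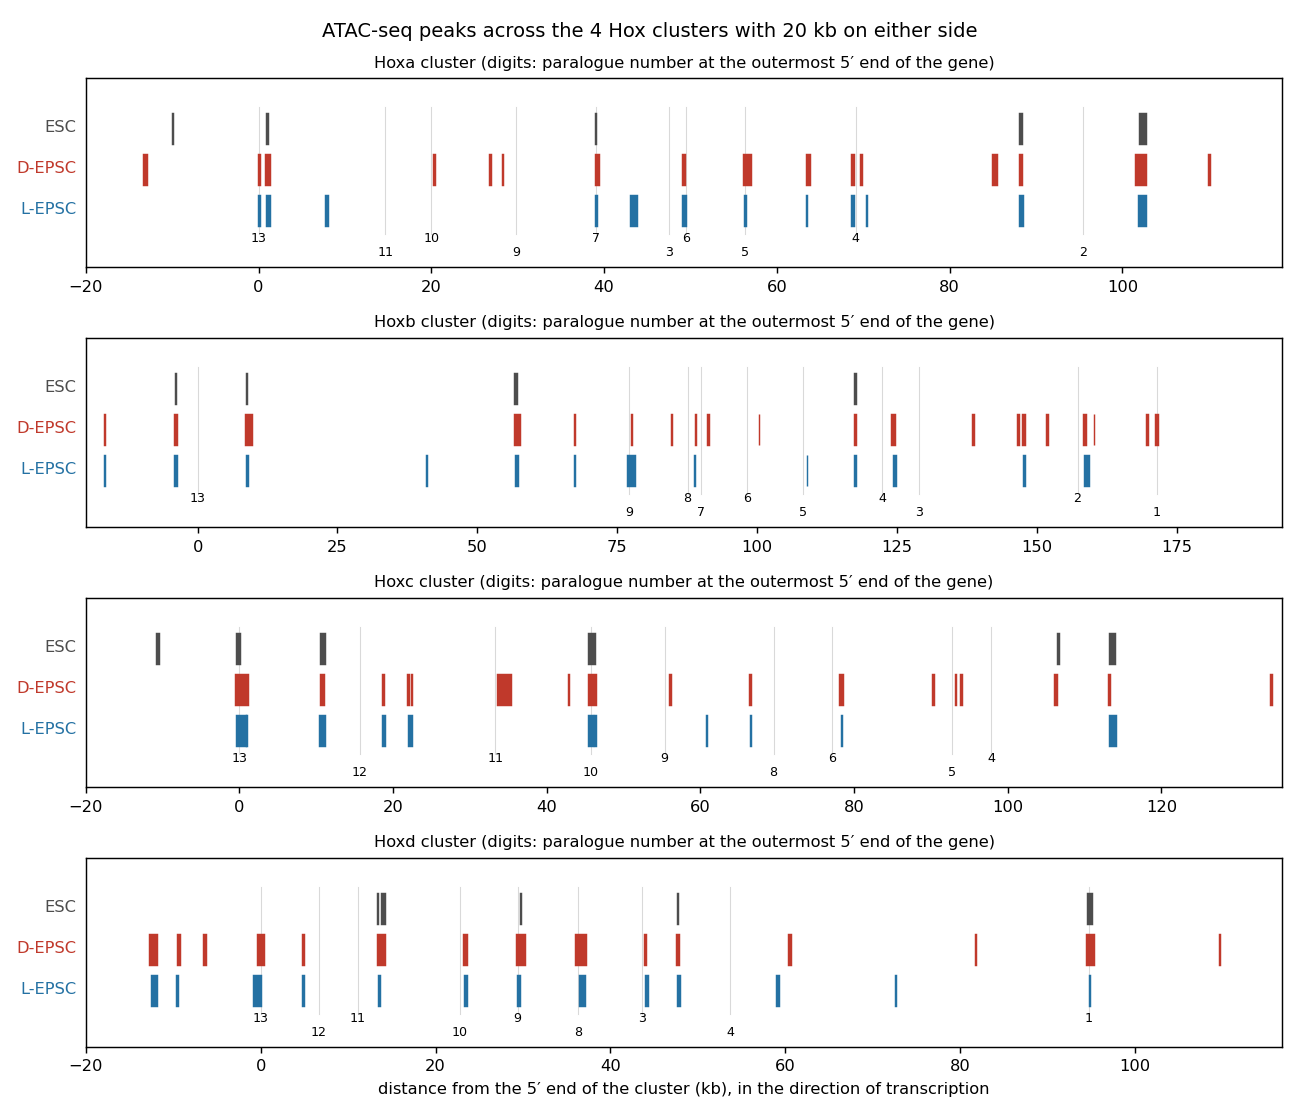
Peaks of the 3 lists along each Hox cluster and 20 kb on either side, with distance in kb from the 5′ end of the cluster in the direction of transcription. Digits give the paralogue number at the outermost 5′ end of each gene. ESC peaks (20 in all) are sparse beside D-EPSC (68) and L-EPSC (49) peaks.

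Merged across the lists, the cluster peaks made 79 regions of 65518 in the genome. Of these, 16 had a peak in all 3 lists (20.3%, against 33.2% of all regions), 22 in both EPSC lists only (27.8%, against 18.4%), 29 in D-EPSCs only (36.7%, against 22.3%), 9 in L-EPSCs only (11.4%, against 15.8%) and 3 in ESCs only (3.80%, against 5.12%). No region joined ESCs to a single EPSC list (Wilson upper bound 4.64% for each pairing), where 1507 of all 65518 regions joined ESCs to D-EPSCs alone and 1915 (2.92%) joined them to L-EPSCs alone, shares under that bound. With each list held to 28965 peaks, 11 regions had a peak in all 3 lists, 9 in both EPSC lists only and 13 in D-EPSCs only, so the order of the first and second classes turned. Regions of the whole genome were not counted at that length, so whether this turn is particular to the clusters is not known. The regions in all 3 lists were split evenly, 4 to a cluster. Those in D-EPSCs only numbered 7 in Hoxa, 10 in Hoxb, 8 in Hoxc and 4 in Hoxd.

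**Figure D4:**
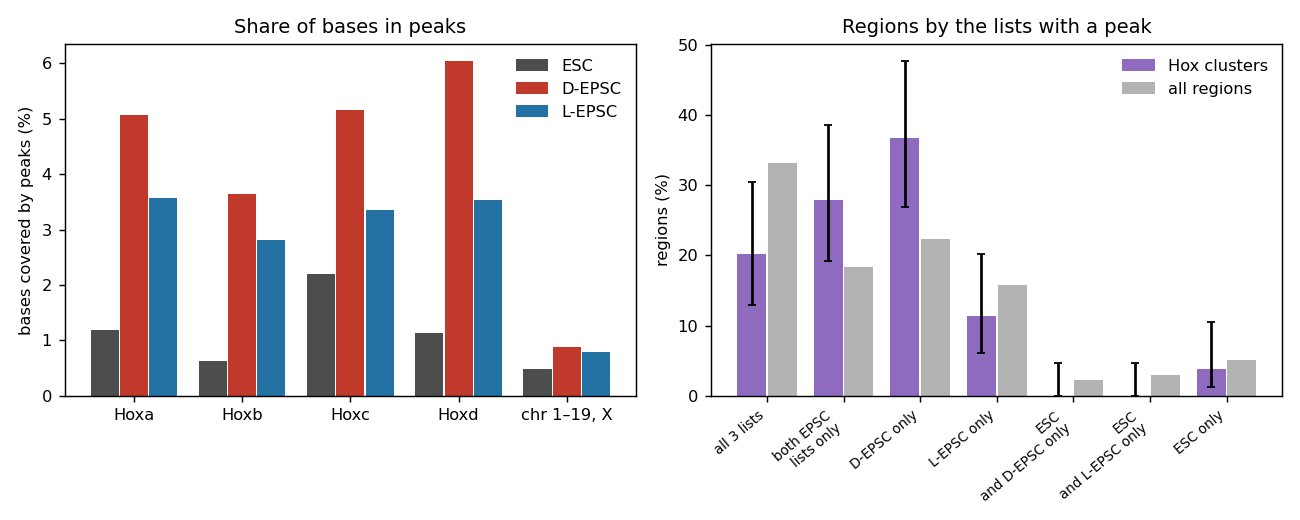
Left, share of bases covered by peaks (%) in each Hox cluster with flanks and on chromosomes 1 to 19 and X, by list. Right, share of merged regions (%) by the lists with a peak, in the Hox clusters (79 regions, bars with Wilson 95% intervals for counting error) and in the genome (65518). D-EPSCs covered the most of each cluster, up to 6.05% in Hoxd.

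Several wide regions lay away from the starts. In the 74.0 kb between Hoxb13 and Hoxb9 there were 2 peaks in the ESC list, 3 in the D-EPSC list and 5 in the L-EPSC list, where the L-EPSC count includes the 1391 bp peak at the Hoxb9 start, which reaches into the interval. One region there, chr11:96064160-96065293, was intergenic and had a peak of 168 bp in the ESC list, 1134 bp in the D-EPSC list and 422 bp in the L-EPSC list. The other wide one, chr11:96112214-96113238, had peaks of 551, 961 and 656 bp. A Hoxb2 exon region, chr11:96213997-96214916, had 441 bp in the D-EPSC list and 872 bp in the L-EPSC list, and a region at Hoxb4, chr11:96179502-96180505, had 758 and 603 bp, in both cases with no ESC peak. Hoxb2 and Hoxb4 therefore had no start peak but did have a peak within the gene in both EPSC lists.

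Of the microRNA genes in the clusters, Mir10a, Mir10b, Mir196a-1, Mir196a-2 and Mir196b had no start peak in any list. Mir615, in a Hoxc5 intron, had 2 peaks of 394 bp together in D-EPSCs and none in the other lists. They were the 119 bp peak already given for the Hoxc5 start and a peak of 275 bp. A share over all microRNA genes was not counted.

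Cluster peaks were richer in CpG than other peaks. The median CpG observed/expected was 0.624 in ESC, 0.654 in D-EPSC and 0.676 in L-EPSC cluster peaks, against 0.406, 0.331 and 0.342 over each whole list. Regions in D-EPSCs only had a median of 0.649 in the clusters and 0.226 in the genome. The GC content was 60.4%, 61.6% and 62.6% in cluster peaks, against 55.4%, 55.2% and 54.6%.

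Of genes whose most upstream coding start was CpG-rich, a smaller share of Hox genes than of all genes had a start peak in each list. CpG was scored at that start only, whereas the peak could lie at any coding start, as for Hoxa3, where it lay far from the start scored. Among genes with a ratio of at least 0.6 in the 500 bp on either side of the start scored, a comparison added after seeing the data, 84.2% of all genes had a start peak in ESCs and 7 of 22 Hox genes did (31.8%). In D-EPSCs the values were 97.3% and 18 of 22 (81.8%), and in L-EPSCs 95.5% and 15 of 22 (68.2%). The gap between Hox and other genes was widest in the ESC list. Of the 16 Hox genes with a lower ratio, 2 had a start peak in ESCs (12.5%, against 23.9% of all such genes), 6 in D-EPSCs (37.5%, against 34.8%) and 4 in L-EPSCs (25.0%, against 31.4%). These counts include Hoxc4 in each list and Hoxd4 in L-EPSCs, whose peaks lay at another start than the one scored. The shares in this set were therefore not ordered against those of all such genes.

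Short motifs were searched on both strands in 400 bp around each peak midpoint. TGATNNAT, a composite site of Hox and Pbx proteins, was present in 10.0% of ESC, 13.2% of D-EPSC and 10.2% of L-EPSC cluster peaks, against 7.59%, 8.50% and 8.49% of all peaks, and each whole-list share lay within the cluster's Wilson interval. The octamer ATGCAAAT was found in 0, 1 and 0 cluster peaks, beside 2.94%, 2.87% and 2.84% of all peaks, shares within the Wilson intervals of the clusters. The CTCF core was found in 0 of 20, 0 of 68 and 0 of 49, where 3.32%, 3.74% and 4.05% of all peaks held it, also within the Wilson intervals. These are exact matches to a simplified consensus.

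Genes that work with or beside the Hox genes were counted in the same way, beside shares over all coding genes of 51.7%, 63.6% and 61.0% in the ESC, D-EPSC and L-EPSC lists. All 9 cofactor genes of the Pbx, Meis and Pknox families, whose proteins bind DNA with Hox proteins, had a start peak in D-EPSCs, 8 did in L-EPSCs and 6 in ESCs. Of 6 upstream regulators, the Cdx genes and the retinoic acid receptors, 2 did in the ESC list, 6 in the D-EPSC list and 5 in the L-EPSC list. Rara had no start peak in ESCs and 4 in each EPSC list, with 1993 bp in the D-EPSC list and 1653 bp in the L-EPSC list. Cdx2 had 667 and 653 bp, also with none in ESCs. Of the 6 ParaHox genes, which include the same Cdx1, Cdx2 and Cdx4, 2, 6 and 5 had a start peak. With 6 to 9 genes in a list, these shares were not ordered against those of all genes.

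Of 12 neighbours of the clusters found in the annotation, 7 had a start peak in the ESC list, 10 in the D-EPSC list and 9 in the L-EPSC list. Evx2, beside Hoxd13, had 319 bp in D-EPSCs, 238 bp in L-EPSCs and none in ESCs, whereas Evx1 and Smug1 had none in any list. The 43 genes of the Pax, Lhx, Dlx, Nkx and Irx families, other homeobox and paired-box developmental regulators, had start peaks at 32.6% in the ESC list, 81.4% in the D-EPSC list and 72.1% in the L-EPSC list. Of these, 4 (9.30%) had none in any list, beside 12 of 38 Hox genes (31.6%) and 34.9% of all coding genes, so the Hox share was near that of all genes.

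**Figure D5:**
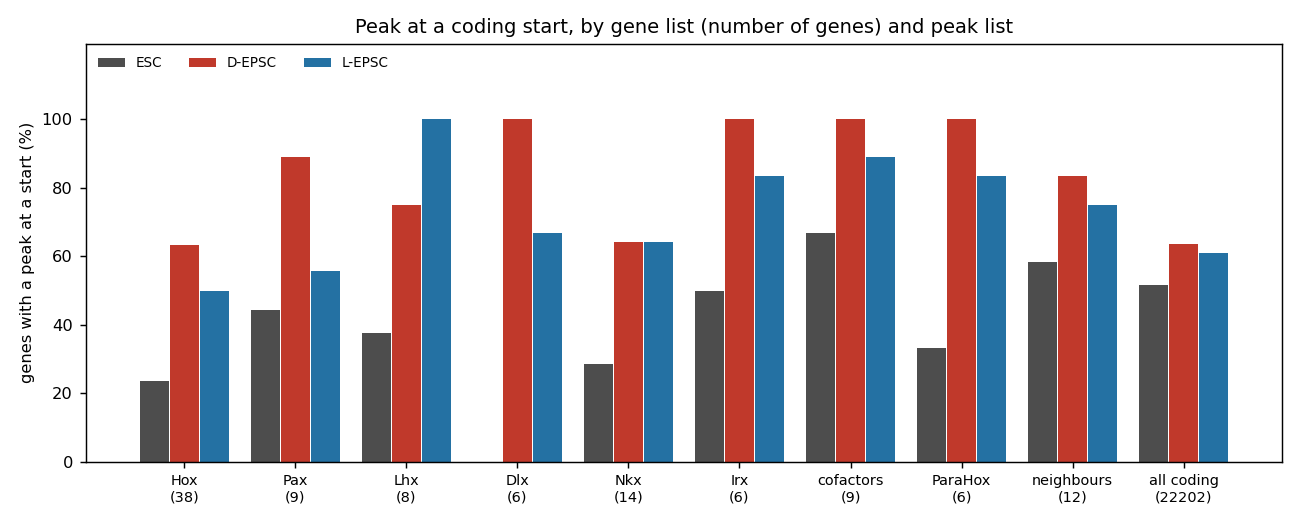
Share of genes (%) with a peak within 1000 bp of a coding start, by gene list (number of genes under each name) and peak list. Hox shares were 23.7%, 63.2% and 50.0% in ESCs, D-EPSCs and L-EPSCs, and the Dlx genes had none in ESCs.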

How the data were processed

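ATAC-seq was measured in 6 libraries, 2 technical replicates for each of ESCs, D-EPSCs and L-EPSCs. The authors aligned reads to mm9 with Bowtie2 2.3.5, filtered the alignments with SAMtools 1.10, and ran MACS at its defaults to call peaks. How replicates were combined, and whether duplicates, the transposase offset or blacklisted regions were handled, was not given in the sources used here. What was deposited is a start and an end position for each peak on mm9, in 4 columns per list with no score.

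Peaks on chromosomes 1 to 19 and X were set against the GENCODE M1 annotation, on the same assembly. A gene had a start peak when at least 1 bp of a peak lay within 1000 bp of a protein-coding transcript start. Shares have 95% Wilson intervals. Members and lists were chosen with earlier results of these data known. Every listed Hox gene is named, and so are the widest peaks by cluster and list, except that 1 locus in the Hoxa flank is not reported here. The listed genes Hotair, Hotairm1, Hottip and 1 neighbour were not found in the annotation by symbol. The marker lists, the stratum of CpG-rich starts and the variable half-sites were chosen after seeing the data. Software was pandas 2.3.3, numpy 2.4.6 and matplotlib 3.10.9 under Python 3.11.15, and overlaps were tested on simulated lists against bedtools 2.31.1.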

Additional observations from a re-analysis of the deposited data

How the results depend on the processing

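No paired analysis was possible because each state has 1 list with no value per replicate, which also kept any replicate from being left out. The order D-EPSC, L-EPSC, ESC held for genes with a start peak, cluster peaks and covered bases under each alternative tried, and 87 of 97 values stayed within 1.5 times the reported one. With the widest 50% of each list, start peaks stood at 5 Hox genes in ESCs and 10 in L-EPSCs, and cluster peaks at 8, 28 and 22 in ESCs, D-EPSCs and L-EPSCs. With the widest 28965 peaks of each list, cluster peaks numbered 35 in D-EPSCs and 31 in L-EPSCs, regions in both EPSC lists only 9 and regions in D-EPSCs only 13. Without flanks, regions in ESCs only numbered 1. These settings use fewer peaks or bases by construction, and regions of the whole genome were not counted under them. At equal list length, start peaks stood at 9, 16 and 13 Hox genes (23.7%, 42.1% and 34.2%) against 51.7%, 58.9% and 56.5% of all genes, so the D-EPSC share then lay below the background. At 2500 bp it lay above it, at 31 of 38 (81.6%) against 66.4%, and the L-EPSC share was then near it, at 25 of 38 (65.8%) against 64.0%. The lists carry no height and no depth, so a narrow peak cannot be weighed by its reads.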
